A study of Mus musculus with 6 samples.

Results

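The transcription factors and co-factors of the otic prosensory domain, 9 members in all, were followed in cultured mouse cochleae with and without neomycin. They are Sox2, Pax2, Gata3, Eya1, Prox1, Isl1, Lmx1a, Hmx2 and Hmx3, chosen by gene symbol, and all 9 were found among the 24421 symbols of the count table. The cochleae came from wild-type (WT) pups at postnatal day 2 and were cultured after removal of the modiolus, the tectorial membrane and the anlage of the stria. The neomycin group, after 12 h in culture, received 1 mM neomycin over 6 h, and a further 5 days with 10 μM EdU, a label of DNA synthesis, followed. The control group was taken as explants without neomycin, because the treatment label and titles name it control while the protocol text is the same for all samples. There were 3 samples in each group, and each was a pool of 6 to 8 cochleae. Whether the pools came from separate litters or cultures is not given in the sources used here, so the p-values measure only the spread between these samples, which may be technical.

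The sensory organs of the inner ear arise from patches of otic epithelium, the prosensory domains, whose cells later become either hair cells (HCs) or the supporting cells (SCs) around them. Sox2 marks these patches and stays on in SCs, and Pax and Eya proteins act upstream in the same epithelium. Gata3 and Isl1 are shared by prosensory cells and by spiral ganglion neurons, whereas Lmx1a, Hmx2 and Hmx3 are known mainly from non-sensory and vestibular parts of the otic epithelium. Neomycin is an aminoglycoside antibiotic that kills HCs, and SCs are the cells from which new HCs can form in the newborn cochlea.

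Sequencing depth was similar, with 50471116 to 66068108 counts per sample, and the tissue carried the markers of its label. Epyc and Tectb, which mark SCs and the ridge beside them, were among the highest markers with control means of 5530 and 4230 CPM (the count of a gene per 1000000 counts of the TMM-scaled library). A value after ± is the SD over the 3 samples of a group (n = 3). Of 20 HC markers, 18 were called lower after neomycin, and their summed level went from 978-1140 CPM in control to 331-397 CPM. Of 22 SC markers, 2 were called lower and 3 higher, with a median log2 fold change of 0.13. The summed level of these SC markers was 13300-15300 CPM in control and 17100-20500 CPM after neomycin. Most of that sum lay in Epyc and Tectb, whose means after neomycin were 6380 and 6450 CPM. In bulk tissue, fewer cells of a type and less RNA per cell cannot be told apart.

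Only Prox1 among the 9 members was called different, and it was lower after neomycin. A call required a fold change over 1.5 together with an adjusted p-value under 0.05 in edgeR's quasi-likelihood test over 15988 genes. The count of 1 of 9 members called lower, 11.1%, stands beside 6.60% of all genes tested, and 0 of 9 called higher stands beside 2.24%. In either direction 8.84% of all genes were called. At an unadjusted p under 0.05 in edgeR 4 members passed, Prox1 and Lmx1a lower and Sox2 and Isl1 higher, or 44.4% against 41.0% of all genes. DESeq2 and limma-voom also called 0 members higher. At the adjusted p-value alone, 2 of 9 members passed, Prox1 and Isl1, or 22.2% against 29.0% of all genes. For 3 members, Prox1, Isl1 and Sox2, all samples of one group lay above all of the other, or 33.3% against 43.5% of all genes. The shares at the adjusted p-value and without overlap were below those of all genes, and the share called lower rested on 1 gene. The median log2 fold change of the 9 members was 0.08, beside 0 for all genes tested, and their summed level was 707-787 CPM in control and 765-850 CPM after neomycin.

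**Figure D1:**
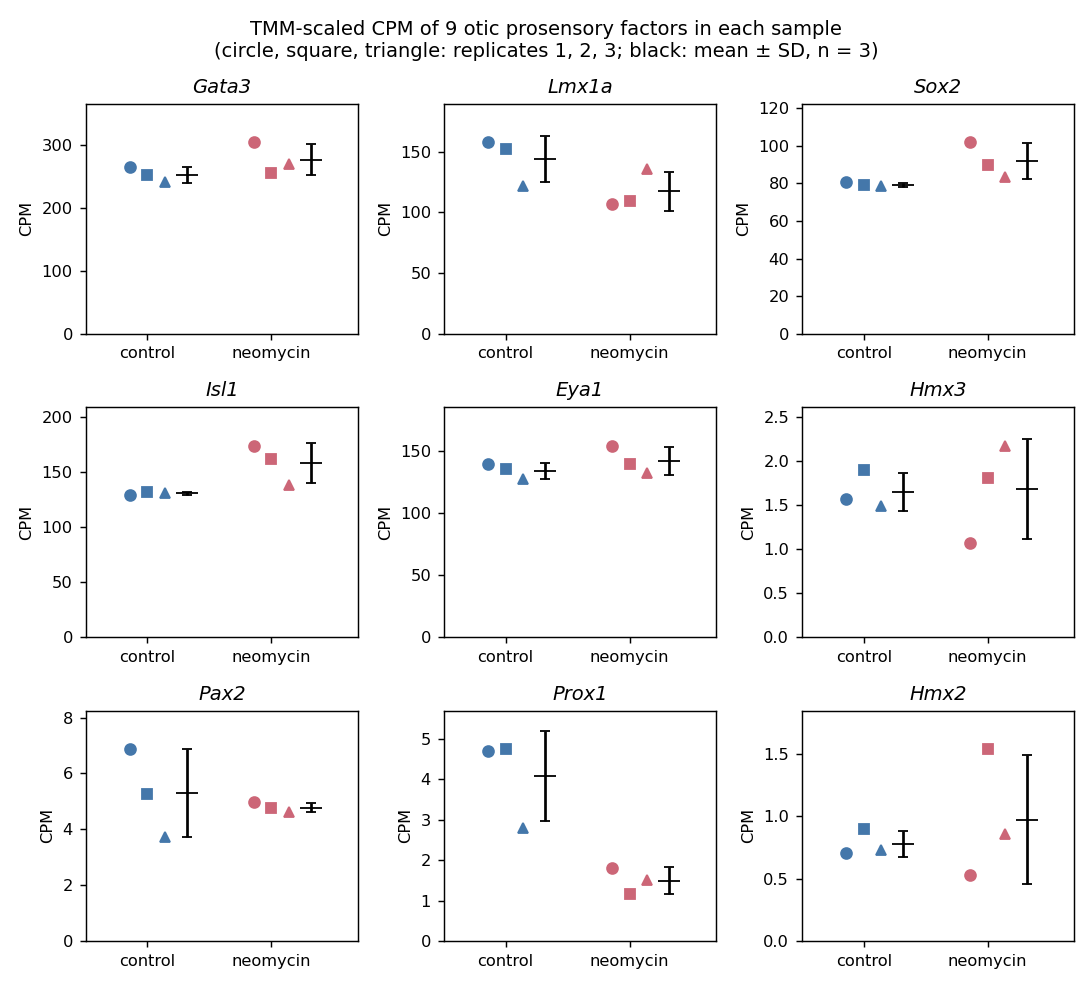
Level of each of the 9 members in CPM (vertical axes, each from 0) in the 3 control samples (blue) and the 3 neomycin samples (red), with circles, squares and triangles for replicates 1, 2 and 3 and black bars for the mean ± SD. The Prox1 points separate, from 2.79-4.75 CPM in control to 1.15-1.81 CPM after neomycin, while Gata3, Eya1, Lmx1a, Pax2, Hmx2 and Hmx3 overlap between the groups.

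Prox1 encodes a homeobox transcription factor that is present in SCs of the organ of Corti and, elsewhere, sets the identity of lymphatic endothelium. It lies on chromosome 1 of mm10 from 190118035 to 190170714 on the minus strand (GENCODE M21). Its level was 4.70, 4.75 and 2.79 CPM in control replicates 1, 2 and 3 and 1.81, 1.15 and 1.51 CPM in neomycin replicates 1, 2 and 3. Every neomycin sample was below every control sample, and control replicate 3 was the lowest of its group. The underlying counts were 157 to 324 in control and 68 to 96 after neomycin. The log2 fold change was -1.46 (standard error 0.26, 95% interval -2.02 to -0.89, adjusted p = 0.00198, edgeR), or 2.74-fold lower. Only 1.98% of all genes tested had a fold change as low or lower.

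Other genes that moved beside Prox1 were measured in the same libraries. The HC markers had a median log2 fold change of -1.80. Of 22 SC markers, 3 were called higher and 2 lower. At the adjusted p-value alone, 7 of these SC markers were higher and 4 lower (edgeR). The called higher ones were Bace2 (log2 fold change 0.98, adjusted p = 1.35e-05, edgeR), Matn4 (0.86, adjusted p = 0.000792, edgeR) and Tectb (0.61, adjusted p = 0.0138, edgeR). The called lower ones were Lgr6 (log2 fold change -1.14, adjusted p = 0.000365, edgeR) and Ngfr (-0.60, adjusted p = 0.00477, edgeR). Outside that list, Fgfr3, a marker of pillar and Deiters' cells among the SCs, was also called lower (-0.66, adjusted p = 0.000129, edgeR). Of 10 endothelium and lymphatic markers, 6 were called lower. The summed level of the list was 283-316 CPM in control and 269-320 CPM after neomycin, so the groups overlapped. Most of that sum lay in Emcn, which was not called (log2 fold change 0.12, adjusted p = 0.329, edgeR). Without Emcn, left out after its level was seen, the summed level of the other 9 was 45.2-56.9 CPM in control and 20.2-23.4 CPM after neomycin. The lymphatic genes of that list were low and overlapped between the groups, with Lyve1 at 0.395 ± 0.179 CPM in control and 0.228 ± 0.174 CPM after neomycin and Flt4 at 2.51 ± 0.550 and 1.6 ± 0.568 CPM. The part of these cell types in the lower Prox1 level was not tested. The annotated antisense gene Prox1os starts 418 bases from the Prox1 start and shares 133 exon bases with it. Since the strand setting of the counting is not given in the sources used here, reads of that stretch cannot be assigned to 1 strand.

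Promoter windows of 250 bases before the start were available for 8 of the 9 members, as 12 RefSeq windows on GRCm38.p6. Eya1 was not matched. For the 2 members with the lowest fold changes 1 window each is shown, 5′ to 3′ on the strand of the gene, with matches to any of 5 searched motifs in capitals. Of 2 Prox1 windows, the one that held a match is shown, chr1:190170828-190171077 (minus strand), and the Lmx1a window is chr1:167689308-167689557 (plus strand). Both were set by RefSeq starts, which differ from the GENCODE gene ends. The Lmx1a window, and the Prox1 window not shown, lie inside the GENCODE spans of their genes, so they are not upstream of the GENCODE starts.
Prox1: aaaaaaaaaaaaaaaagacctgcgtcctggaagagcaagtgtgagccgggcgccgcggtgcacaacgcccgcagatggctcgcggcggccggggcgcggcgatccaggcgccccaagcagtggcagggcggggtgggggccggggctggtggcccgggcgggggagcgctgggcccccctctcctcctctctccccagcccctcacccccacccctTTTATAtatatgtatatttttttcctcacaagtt
Lmx1a: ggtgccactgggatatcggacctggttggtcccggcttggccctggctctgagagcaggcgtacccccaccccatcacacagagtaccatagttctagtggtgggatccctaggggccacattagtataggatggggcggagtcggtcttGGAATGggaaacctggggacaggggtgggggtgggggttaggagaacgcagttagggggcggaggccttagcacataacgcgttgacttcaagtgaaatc

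The Prox1 window shown held 64.8% G and C with 20 CpG sites, the other Prox1 window, chr1:190169516-190169765, held 56.0% with 11 and no match, and the Lmx1a window held 59.2% with 9, beside medians of 52.4% and 6 over 32817 mouse windows. The capitals in Prox1 are TATAAA read on the other strand, at position -34 from the start. In Lmx1a they are GGAATG, the letters bound by TEAD factors, the DNA-binding partners of YAP, at position -100. All motifs were searched on both strands, and no matches overlapped. GGAATG was present in 1 of the 12 windows and in 12.6% of all windows, and TATAAA in 2 of 12 and 12.4%. The E-box CAGCTG was present in 2 of 12 windows, those of Isl1 and Pax2, and in 13.0% of all. The SOX letters AACAAAG were present in 0 of 12 and 5.03% of all, and the GATA letters AGATAA in 0 of 12 and 9.99% of all. A match is only a description of letters in these windows.

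Of Sox2, Isl1 and Gata3, the members shared by prosensory cells and, for Isl1 and Gata3, neurons, none was lower after neomycin. Sox2, an HMG box transcription factor needed to form the prosensory domain, is a gene of 1 exon on chromosome 3 from 34650405 to 34652461. It was at 80.5, 79.0 and 78.5 CPM in control replicates 1, 2 and 3 and at 102, 90.0 and 83.6 CPM in neomycin replicates 1, 2 and 3. All 3 neomycin samples were above the controls, by the least in replicate 3. The log2 fold change was 0.21 (standard error 0.08, 95% interval 0.04 to 0.38), and the adjusted p of 0.064 (edgeR) missed the threshold. A 1.5-fold change in either direction lies outside that interval.

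Isl1, a LIM-homeodomain transcription factor of prosensory cells and sensory neurons, lies on chromosome 13 from 116298281 to 116309689. Its level was 129, 132 and 131 CPM in the control samples and 174, 162 and 138 CPM after neomycin. Again no neomycin sample was as low as a control. This gave a log2 fold change of 0.27 (standard error 0.09, 95% interval 0.09 to 0.46, adjusted p = 0.0302, edgeR), a rise of 21.0% that stayed under the fold threshold. The adjusted p was 0.0598 without control replicate 1, 0.0791 without control replicate 2, 0.109 without neomycin replicate 1 and 0.118 without neomycin replicate 2 (edgeR), with log2 fold changes of 0.27, 0.29, 0.20 and 0.26. For both Sox2 and Isl1 the controls lay close together, with a coefficient of variation of 1.27% and 1.31%, and the neomycin samples lay further apart at 10.2% and 11.5%. Of 15 spiral ganglion neuron markers, 4 were called lower, or 26.7% against 6.60% of all genes, and 0 higher. At the adjusted p-value alone, 4 were lower and 2 higher (edgeR). The median log2 fold change of the 15 was -0.35, with 10 below 0. The summed level of these neuron markers was 278-389 CPM in control and 293-309 CPM after neomycin. The part of neurons and SCs in the Isl1 and Sox2 values was not tested.

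Gata3, a zinc finger factor expressed widely across the cochlear sensory epithelium and in its neurons, lies on chromosome 2 from 9857078 to 9890034. Its level was 266, 252 and 241 CPM in control and 305, 256 and 270 CPM after neomycin, so the groups overlapped. Neomycin against control gave a log2 fold change of 0.13 (95% interval -0.05 to 0.31, adjusted p = 0.261, edgeR). Genes inside the Gata3 locus can share its reads where exons overlap. The annotated antisense gene Gm13256 shares 155 exon bases with Gata3 but was not matched to a symbol of the counts. 9230102O04Rik, on the same strand with 77 shared exon bases, was at 10.7 ± 0.916 CPM in control and 13.3 ± 1.71 CPM after neomycin. 4930412O13Rik, on the opposite strand with 0 shared exon bases, was at 10.9 ± 2.07 and 9.02 ± 1.82 CPM. Neither passed the test (adjusted p = 0.0759 and 0.229, edgeR).

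**Figure D2:**
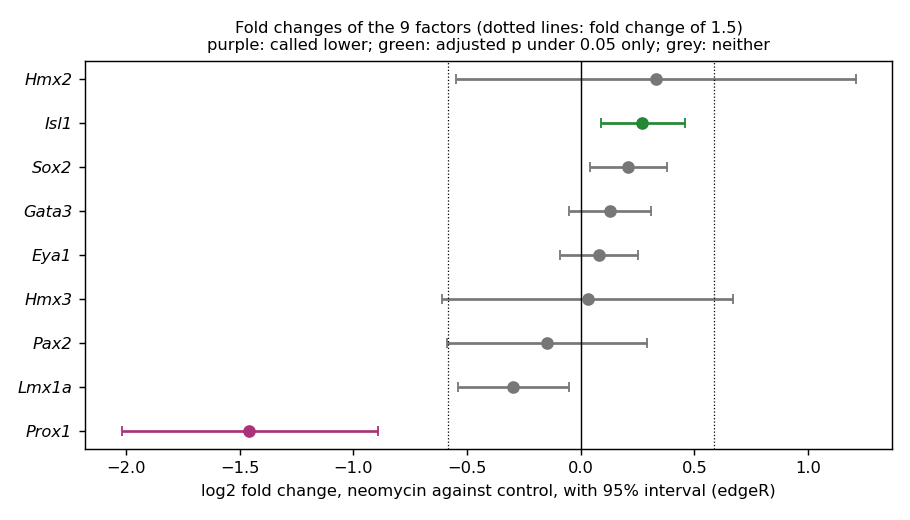
Log2 fold change of neomycin against control (horizontal axis) for each member, as edgeR's estimate with its 95% interval, and dotted lines at a fold change of 1.5. Prox1 stands alone at -1.46, Isl1 (green) is the other member under an adjusted p of 0.05, and the intervals of Hmx2, Hmx3 and Pax2 are the widest of the rest.

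Eya1 and Pax2 belong to the early PAX and EYA circuit of the otic epithelium. Eya1, a transcriptional co-activator and phosphatase that acts with homeobox partners, lies on chromosome 1 from 14168954 to 14310235. Its level was 139, 135 and 127 CPM in control and 154, 139 and 132 CPM after neomycin. The groups overlapped, with a log2 fold change of 0.08 (95% interval -0.09 to 0.25, adjusted p = 0.469, edgeR). Pax2, a paired-box factor of the otic placode and cochlear duct, lies on chromosome 19 from 44756045 to 44837871. It was at 6.87, 5.27 and 3.72 CPM in control and at 4.97, 4.75 and 4.62 CPM after neomycin, so the control samples alone spanned more than the neomycin group. Its log2 fold change was -0.15 (95% interval -0.59 to 0.29, adjusted p = 0.613, edgeR), and without control replicate 1 it was 0.10 (adjusted p = 0.762, edgeR).

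Lmx1a, Hmx2 and Hmx3 are the members known from non-sensory or vestibular otic epithelium. Lmx1a, a LIM-homeodomain factor that separates sensory from non-sensory patches, lies on chromosome 1 from 167689237 to 167848741. Its level was 158, 152 and 122 CPM in control and 107, 109 and 136 CPM after neomycin. Control replicate 3 fell below neomycin replicate 3, so the groups overlapped. Between the groups the log2 fold change was -0.30 (standard error 0.11, 95% interval -0.54 to -0.05, adjusted p = 0.0637, edgeR). Without control replicate 3 the adjusted p was 0.0119, and without neomycin replicate 3 it was 0.0220, while without each of the other 4 samples it lay between 0.172 and 0.22 with log2 fold changes of -0.25 to -0.21 (edgeR). Markers of stria marginal cells and Reissner membrane, other non-sensory epithelium of the cochlear duct, were not called in either direction (0 of 9 tested). At the adjusted p-value alone, 1 was lower and 1 higher (edgeR). The summed level of the list was 2050-2530 CPM in control and 2660-2790 CPM after neomycin, and most of it lay in Oc90 and Vmo1. The part of this non-sensory epithelium in the Lmx1a values was not tested.

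Hmx2 and Hmx3 are neighbouring homeobox genes on chromosome 7, Hmx3 from 131542867 to 131544925 and Hmx2 from 131548773 to 131558014, that shape the vestibular labyrinth. Both passed the filter on low counts. Hmx2 had 49, 47 and 41 counts in control, or 0.710, 0.901 and 0.729 CPM, and 28, 91 and 46 counts after neomycin, or 0.527, 1.54 and 0.856 CPM. Neomycin samples were both the lowest and the highest of the 6. For Hmx2 the log2 fold change was 0.33 (95% interval -0.55 to 1.21, adjusted p = 0.576, edgeR), and without neomycin replicate 2 it was -0.17 (adjusted p = 0.816, edgeR). Hmx3 had 84 to 108 counts in control and 57 to 117 after neomycin, at 1.57, 1.90 and 1.49 CPM and 1.07, 1.81 and 2.18 CPM. Its log2 fold change was 0.03 (95% interval -0.61 to 0.67, adjusted p = 0.946, edgeR), and the interval includes a 1.5-fold change in either direction. The annotated span of Fgfr2 encloses both genes on the opposite strand with 0 shared exon bases, and Fgfr2 was at 119 ± 20.2 CPM in control and 106 ± 8.17 CPM after neomycin.

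The neomycin samples did not move as one. Neomycin replicate 1 had the highest value of its group for 6 members, Sox2, Pax2, Gata3, Eya1, Prox1 and Isl1, and the lowest for the other 3, Lmx1a, Hmx2 and Hmx3. Neomycin replicate 3 had the lowest value for Sox2, Pax2, Eya1 and Isl1 and the highest for Lmx1a and Hmx3. In the control group replicate 3 was lowest for 7 members.

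Levels were compared between members after division by exon length (RPKM, TMM-scaled CPM per kb of exon, with the GENCODE exon union as length). In control, Gata3 was highest at 63.6 ± 3.24 RPKM, followed by Lmx1a at 42.4 ± 5.76, Sox2 at 38.6 ± 0.491, Isl1 at 32.9 ± 0.430 and Eya1 at 17.1 ± 0.783 RPKM. The other 4 were lower by an order of magnitude or more, with Hmx3 at 1.13 ± 0.148, Pax2 at 0.977 ± 0.291, Prox1 at 0.486 ± 0.133 and Hmx2 at 0.243 ± 0.0327 RPKM. Neighbours in this order had separate ranges over the 3 control samples except for Lmx1a with Sox2 and Hmx3 with Pax2.

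After neomycin, Lmx1a ranked after Sox2 and Isl1, at 34.5 ± 4.71 RPKM against 44.7 ± 4.57 for Sox2 and 39.9 ± 4.59 for Isl1. The ranges of Sox2 and Isl1, and of Isl1 and Lmx1a, overlapped. Prox1 went from the eighth to the ninth place at 0.178 ± 0.0391 RPKM, and its range overlapped that of Hmx2 at 0.303 ± 0.161 RPKM. The remaining members kept their places relative to each other.

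**Figure D3:**
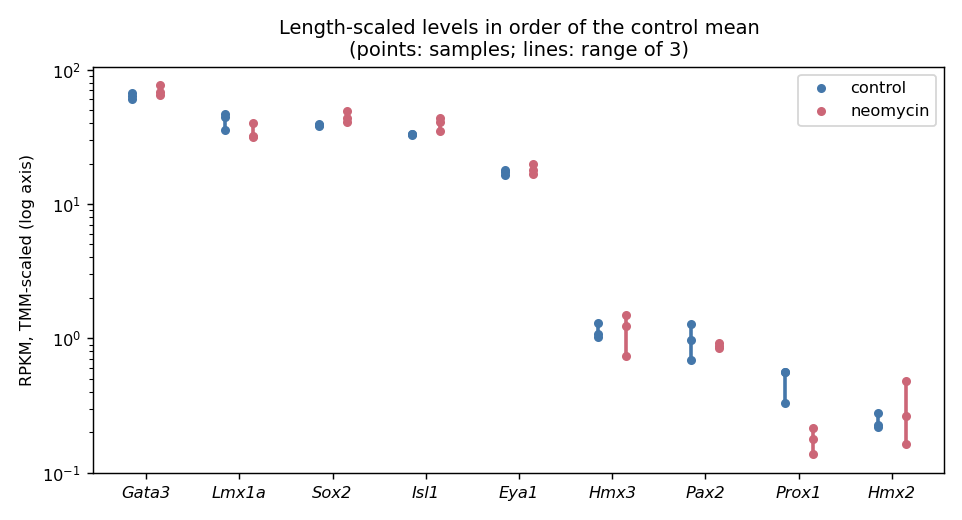
Level per kb of exon (RPKM, log axis) of each member in the control (blue) and neomycin (red) samples, ordered by the control mean, with lines over the range of 3 samples. Gata3, Lmx1a, Sox2, Isl1 and Eya1 lie at 16.3 RPKM or above in every sample, and all values of Hmx3, Pax2, Prox1 and Hmx2 lie below these.

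Other genes of the same circuit, 67 in all, were examined in 6 lists of relatives, partners, otic patterning factors and prosensory signals. Of the 56 tested, 5 were called lower, or 8.93% against 6.60% of all genes, and 0 were called higher against 2.24%. These 5 were Six2, Eya4, Lhx3, Sall1 and Fgfr3. At the adjusted p-value alone, 11 were lower, or 19.6% against 16.1% of all genes, and 6 were higher, or 10.7% against 12.9%. The median log2 fold change over the 56 was -0.02.

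Among the relatives and partners of Pax2 and Eya1, 2 of 9 tested were called lower and 0 higher, with a median of -0.02. Six2, a homeobox factor, fell from 73.8 ± 5.03 to 42.3 ± 4.82 CPM (log2 fold change -0.80, adjusted p = 7.73e-05, edgeR). Eya4, a relative of Eya1 whose human gene is a deafness gene, fell from 63.7 ± 12.6 to 38.3 ± 5.93 CPM (-0.74 on the same scale, adjusted p = 0.0026, edgeR). Pax8, the close relative of Pax2, had 0 counts in every sample, which allows up to 0.0575 CPM in the shallowest library.

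Of the LIM-homeodomain relatives and cofactors, 1 of 8 tested was called lower and 0 higher, with a median of 0.06. It was Lhx3, which is also an HC marker, and it fell from 7.0 ± 1.43 to 2.58 ± 0.353 CPM (log2 fold change -1.44, adjusted p = 0.000282, edgeR). Isl2 was at 18.4 ± 0.413 and 15.8 ± 0.810 CPM (adjusted p = 0.0896, edgeR). Ldb1, the cofactor that bridges LIM proteins, was at 147 ± 3.44 and 171 ± 11.9 CPM and passed the adjusted p-value alone (0.0448, edgeR), while Lmo4 was at 181 ± 15.4 and 199 ± 11.4 CPM (adjusted p = 0.237, edgeR). Lmx1b, the paralog of Lmx1a, had too few counts to be tested.

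No SOX, GATA, PROX or HMX relative was called. In the SOX list 5 of 7 were tested, with a median of 0.11. At the adjusted p-value alone, Sox4 was lower, at 91.9 ± 11.4 and 71.4 ± 8.08 CPM (adjusted p = 0.0194, edgeR), and Sox11 was higher by 0.19 on the log2 scale (adjusted p = 0.0426, edgeR). Sox9, which marks SCs, was at 87.1 ± 6.33 CPM in control and 94.1 ± 13.2 CPM after neomycin, and Sox21 was at 45.0 ± 3.39 and 52.4 ± 5.52 CPM (adjusted p = 0.408 and 0.085, edgeR). In the list of GATA, PROX and HMX relatives and cofactors 4 of 5 were tested, with a median of 0.03. Gata2, which shares the otic epithelium with Gata3, had a log2 fold change of 0.28 with overlapping groups (adjusted p = 0.0735, edgeR). The GATA cofactors Zfpm1 and Zfpm2 had log2 fold changes of -0.11 and 0.01 (adjusted p = 0.273 and 0.972, edgeR). Hmx1 had at most 1 count in any sample.

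Of 17 other otic patterning factors tested, 1 was called lower and 0 higher, with a median of 0.09. Sall1, a zinc finger factor, fell from 64.7 ± 3.40 to 33.8 ± 3.77 CPM (log2 fold change -0.94, adjusted p = 2.11e-05, edgeR). Of 13 prosensory signals and cell cycle genes, 1 was called lower and 0 higher, with a median of -0.09. Fgfr3, a receptor that marks pillar and Deiters' cells among the SCs, fell from 165 ± 6.70 to 104 ± 8.87 CPM (log2 fold change -0.66, adjusted p = 0.000129, edgeR). At the adjusted p-value alone, 4 of the 13 were lower, or 30.8% against 16.1% of all genes, and 0 higher against 12.9% (edgeR). Beside Fgfr3 these were Notch1, the Notch ligand Jag1 and the Notch modulator Lfng, the last 2 being markers of the prosensory domain. All 3 were lower by less than the fold threshold, with log2 fold changes of -0.32, -0.31 and -0.36 (adjusted p = 0.0245, 0.0103 and 0.0147, edgeR).

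**Figure D4:**
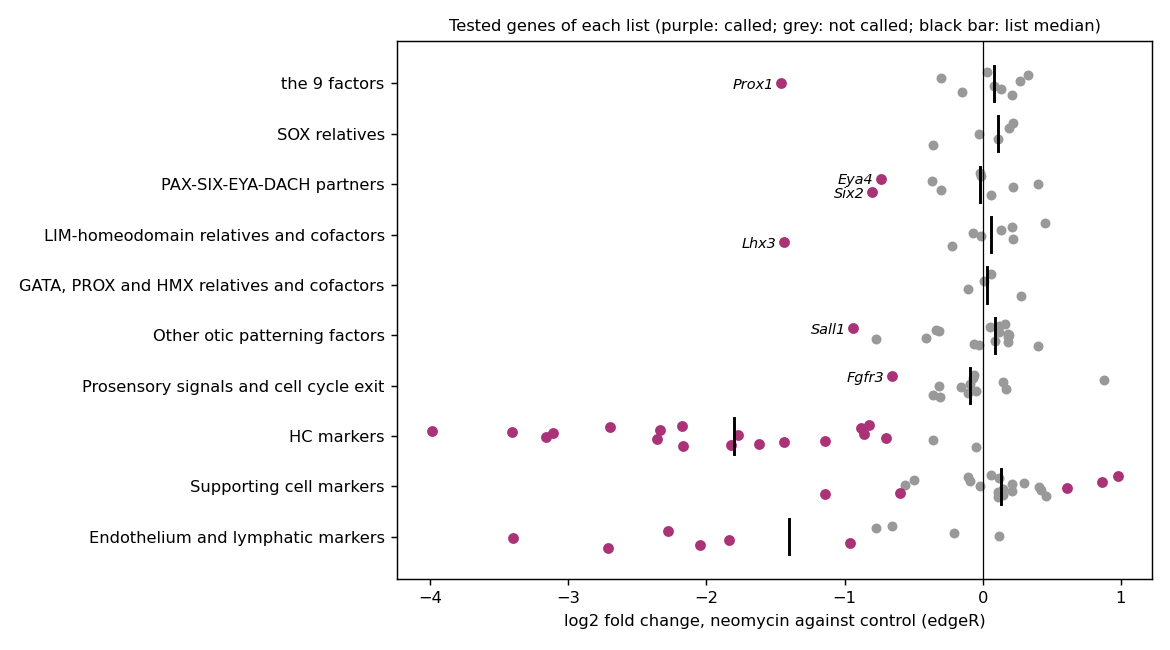
Log2 fold change of neomycin against control (horizontal axis) for every tested gene of each list, with called genes in purple, others in grey and a black bar at the list's median. The 9 members and the 6 otic lists centre between -0.09 and 0.11, with at most 2 called genes in each, all to the left. The HC markers centre on -1.80 and the endothelium and lymphatic markers on -1.40.

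Sox2ot, a long non-coding RNA gene whose span encloses Sox2 on the same strand with 0 shared exon bases, was at 1.6 ± 0.363 CPM in control and 1.67 ± 0.436 CPM after neomycin, with overlapping groups (adjusted p = 0.893, edgeR). The Pax2 locus holds Mir6405, with 0 counts, and 1700039E22Rik, with at most 10 counts in a sample.

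Genes with the most similar profile were looked up for the 8 members with a mean of at least 1 CPM, by Pearson's r of log2 CPM over the 6 samples among 14028 other genes. The 6 points share their libraries and the difference between groups, so a high r is only a description. Prox1 was most like Birc6 (r = 0.9989), whose own log2 fold change was -0.48 (adjusted p = 0.0021, edgeR). Those most like Sox2 were D3Ertd751e (r = 0.9961) and Tle1 (r = 0.9887). Isl1 was most like Vsig10 (r = 0.9945) and Prr3 (r = 0.9893), and Lmx1a was most like Ulk1 (r = 0.9956) and Anln (r = 0.9927). For Gata3 they were Fam21 (r = 0.9920) and Bop1 (r = 0.9819), and for Eya1 they were Mapkap1 (r = 0.9903) and Iffo1 (r = 0.9836). Pax2 followed Cntrl (r = 0.9850) and Chl1 (r = 0.9837), and Hmx3 followed Ankrd23 (r = 0.9951) and Tnfaip6 (r = 0.9914). The genes named here for the other 7 members did not pass an adjusted p-value under 0.05 (edgeR).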

How the data were processed

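RNA of 3 control and 3 neomycin samples of cochlear explants was measured. Per the labels and the study's methods, the authors called bases with CASAVA 1.8, trimmed reads with Trimmomatic 0.23, aligned them to mm10 with HISAT2 and counted them per gene with HTSeq. The deposited values are raw counts of reads per gene symbol. The strand setting, the date of the annotation and the handling of reads with several matches are not given in the sources used here.

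Counts were filtered with filterByExpr, scaled by TMM and tested, neomycin against control, with edgeR 4.0.16 (quasi-likelihood test, R 4.3.3) and Benjamini-Hochberg adjustment over all genes tested. Standard errors were taken from the F statistic as |log2 fold change| over its square root, and 95% intervals used the test's degrees of freedom. Calls required a fold change over 1.5 at an adjusted p-value under 0.05, as in the study's methods. Depth was 50471116 to 66068108 counts, and a count of 3 was taken as the floor. Floors cover counting error only. Replicates differed beyond sampling noise (chi-square of 13.7 to 46.7 per gene on average), so all 6 were kept. Loci and exon lengths came from GENCODE M21, where 23376 symbols matched as written and 651 by an older name, and promoters from RefSeq (GRCm38.p6).

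The members and lists were chosen with earlier results of these data known. Besides the members, the text names listed genes that were called, direct paralogs and partners, genes overlapping a member, and the 2 genes most like each member (log2 CPM, prior count 2). Some results that this rule names are not reported here. Sox4, Sox11, Jag1, Lfng, Notch1, Lyve1, Flt4 and the marker genes Epyc, Tectb, Lgr6, Ngfr, Bace2, Matn4, Emcn, Oc90 and Vmo1 were chosen after their values were seen. Lists were described by counts and medians. Alternatives were DESeq2 1.42.0, limma-voom (limma 3.58.1), other scalings and filters, a replicate block, each sample left out, removal of the trend on exon length and stricter thresholds. The code was tested on simulated data. Figures used matplotlib 3.10.9.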

Additional observations from a re-analysis of the deposited data

How the results depend on the processing

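The count of 1 member called lower and 0 called higher held under all 16 alternatives tried, and the log2 fold change of Prox1 lay between -1.66 and -1.30 with adjusted p-values up to 0.0158 over its 14 alternatives (edgeR, DESeq2 or limma-voom). The count of members under an adjusted p of 0.05 was 2 in the reported fit, 4 with DESeq2 and 4 with the trend on exon length removed, and 1 to 4 with a sample left out. With DESeq2 the 4 were Prox1, Isl1, Sox2 (adjusted p = 0.049) and Lmx1a (adjusted p = 0.0371), and with the length trend removed Eya1 (0.21, adjusted p = 0.0278) and Lmx1a (-0.35, adjusted p = 0.0324) passed while Sox2 shrank to 0.04 (adjusted p = 0.797). The cause was not tested. For Sox2 an adjusted p under 0.05 was also given by upper quartile scaling and without neomycin replicate 3, and for Lmx1a with no filter. Without neomycin replicate 1 the log2 fold change of Sox2 was 0.13 (adjusted p = 0.245, edgeR).

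Of the members with small changes, 3 reversed sign. Over fits that each left out 1 sample, Pax2 ranged from -0.34 to 0.10 (without control replicate 1), Hmx2 from -0.17 (without neomycin replicate 2) to 0.63 and Hmx3 from -0.19 to 0.27. Hmx3 was -0.01 with limma-voom, -0.01 with the replicate block, -0.24 with the length trend removed, and -0.02, -0.02 and -0.19 without control replicate 3, neomycin replicate 2 and neomycin replicate 3. Over all genes, 565 were called lower and 121 higher at a fold change over 2, 217 higher at an adjusted p under 0.01 and 232 higher with the length trend removed. With a sample left out, 237 (without control replicate 2) to 513 genes were called higher, 800 to 1159 lower, and 2518 to 5341 passed the adjusted p-value alone, against 4629 in the reported fit. The count was 2567 without control replicate 2, 2518 without neomycin replicate 2 and 3001 without neomycin replicate 3.

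Same-numbered control and neomycin samples deviated from their group means with correlations of 0.17, 0.03 and 0.09. Every sample except control replicate 2 correlated best with its own number. Control replicate 2 had r = 0.03 with both neomycin replicates 2 and 3. The study's methods use no pairs, so the reported fit held no replicate block, and whether the numbers mark pairs is not settled here. Over all genes, 6014 passed the adjusted p-value alone with the block, against 4629 without it (edgeR). With the replicate block, Sox2 (adjusted p = 0.0258, edgeR) passed an adjusted p of 0.05 beside Prox1 and Isl1, 3 members in all, and no other call on a member changed. Hmx2, with 28 to 91 counts, was removed by a minimum of 1 CPM in 3 samples.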
